A study of Homo sapiens with 2 samples.

Results

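The cereblon ligase and the Ikaros factors were followed through 10 genes: CRBN, DDB1, CUL4A, CUL4B and RBX1 of the ligase, and IKZF1, IKZF2, IKZF3, IKZF4 and IKZF5 of the transcription factor family. The members were all probe sets that the platform annotation maps to exactly 1 symbol when that symbol is 1 of these 10. This gave 33 probe sets for 10 genes, of 19775 genes with such a probe set on the array. The tested RNA came from MM.1S cells grown with plasmacytoid dendritic cells (pDCs), and the comparison RNA from MM.1S cells grown alone. MM.1S is a human multiple myeloma cell line, and pDCs are the dendritic cells known for making type I interferon. Each group had 1 Affymetrix HG-U133 Plus 2.0 array, so the values carry no replicate error (n = 1 per group) and no difference can be tested. The sources used here do not give drug treatment, culture time or cell ratio, nor do they say whether pDCs were removed before RNA was extracted. "Higher" and "lower" describe these 2 arrays.

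Cereblon is the substrate receptor of an E3 ubiquitin ligase of the CUL4 class. It binds the adaptor DDB1, which docks on the cullin scaffold CUL4A or CUL4B, and the RING protein RBX1 at the other end of the scaffold brings in the ubiquitin-charged enzyme. Thalidomide, lenalidomide and pomalidomide bind cereblon and redirect the ligase to the zinc finger proteins Ikaros (IKZF1) and Aiolos (IKZF3), whose degradation underlies the action of these drugs in myeloma. Arrays measure transcripts, so the amount, assembly or activity of the proteins was not measured here.

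CRBN was the only member at least 2-fold higher in co-culture on its brightest probe set, and none was 2-fold lower. CUL4B was higher on all 4 of its probe sets without reaching 2-fold, and DDB1 was 1.28-fold higher. RBX1 and CUL4A differed little on their brightest probe sets. IKZF1 and IKZF3, the drug targets, were 1.14-fold and 1.07-fold higher, whereas IKZF4 and IKZF5 were 1.61-fold and 1.45-fold lower on their brightest probe sets, which their other probe sets did not share. IKZF2 had no probe set above the floor on either array. The floor is the median signal of each array, 115.9 in co-culture and 124.0 alone, and signals below it were set to it. A gene was represented by its brightest probe set, by mean log2 signal over the 2 arrays.

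Of the 9 members above the floor, 1 was at least 2-fold higher, beside 3.16% of the 14408 genes measured, and 0 were at least 2-fold lower, beside 4.51%. A positive log2 ratio was found in 6 of the 9, beside 46.7% of all genes measured. The median log2 ratio of the members was 0.10 and that of all genes measured was -0.04, with quartiles of -0.39 and 0.30. The median was 0.36 over the 5 ligase genes and -0.21 over the 4 measured Ikaros genes, of which 2 were positive and 2 negative. By probe set, 9 of 11 ligase ratios and 7 of 10 Ikaros ratios were positive. The negative Ikaros median thus rests on the brightest probe sets of IKZF4 and IKZF5. Averaged over probe sets, only IKZF4 of these 4 genes was negative. Of the 33 probe sets, 19 were above the floor on both arrays, 2 on 1 array and 12 on neither. Among the 21 with a ratio, 2 were at least 2-fold higher (4.19% of all such probe sets with 1 symbol) and 0 at least 2-fold lower (4.67%). Of those 21, 16 were positive, beside 48.4% of all. Probe sets of 1 gene share a transcript and are not replicates.

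**Figure D1:**
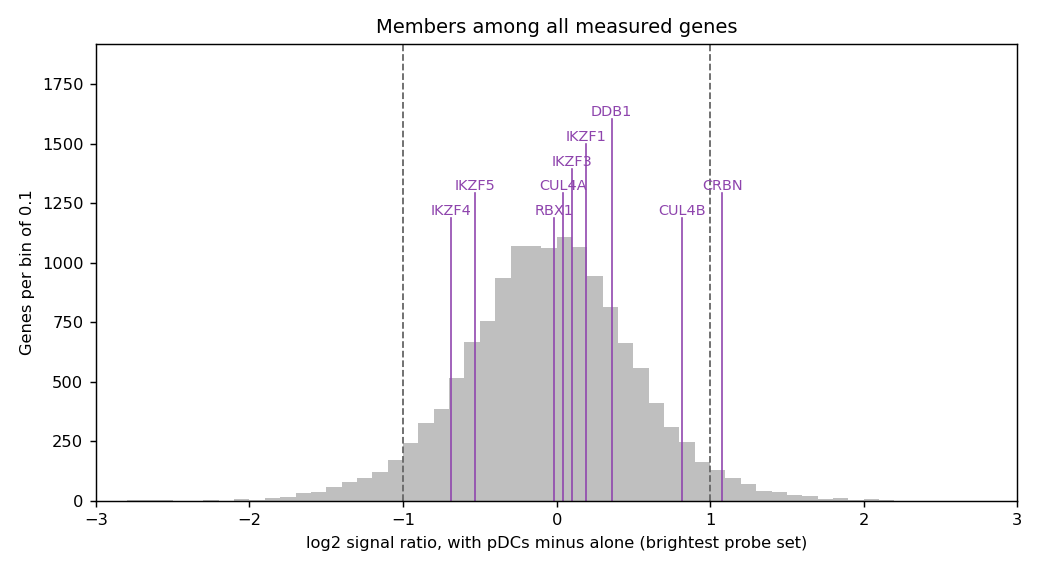
Histogram of log2 signal ratios, with pDCs minus alone, for the 14408 genes measured (brightest probe set, bins of 0.1), with purple lines for the 9 measured members and dashed lines at 2-fold. The axis ends at 3 on each side, which leaves out 5 genes. CRBN, at 1.08, lies just past the dashed line, and IKZF4, at -0.68, is the lowest member.

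The stretches upstream of CRBN, CUL4B and IKZF1 are shown because these genes had the 2 highest ratios among the members or, for IKZF1, the most probe sets. Sequences are those of RefSeq on GRCh38.p14, the 250 bases before a transcript start, read 5' to 3' on the gene's strand. Capitals mark matches on either strand to the Ikaros core motif TGGGAA or to the E-box CACGTG, which MYC and other factors bind.
CRBN, chr3:3179718-3179967, minus strand: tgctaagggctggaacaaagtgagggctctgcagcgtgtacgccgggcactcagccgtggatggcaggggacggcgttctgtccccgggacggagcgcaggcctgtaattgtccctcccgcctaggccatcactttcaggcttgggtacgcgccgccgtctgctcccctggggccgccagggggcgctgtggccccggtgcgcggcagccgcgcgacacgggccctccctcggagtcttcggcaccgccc
CUL4B, chrX:120575533-120575782, minus strand: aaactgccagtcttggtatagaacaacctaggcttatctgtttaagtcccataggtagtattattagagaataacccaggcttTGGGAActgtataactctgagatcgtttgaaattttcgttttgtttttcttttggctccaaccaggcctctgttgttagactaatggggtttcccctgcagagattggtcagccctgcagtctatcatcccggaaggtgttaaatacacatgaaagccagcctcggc
CUL4B, chrX:120559899-120560148, minus strand: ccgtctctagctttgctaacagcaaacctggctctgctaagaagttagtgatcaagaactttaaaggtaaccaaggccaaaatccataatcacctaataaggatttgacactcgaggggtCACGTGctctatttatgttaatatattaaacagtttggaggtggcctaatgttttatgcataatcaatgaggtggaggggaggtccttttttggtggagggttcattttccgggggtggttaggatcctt
IKZF1, chr7:50304466-50304715, plus strand: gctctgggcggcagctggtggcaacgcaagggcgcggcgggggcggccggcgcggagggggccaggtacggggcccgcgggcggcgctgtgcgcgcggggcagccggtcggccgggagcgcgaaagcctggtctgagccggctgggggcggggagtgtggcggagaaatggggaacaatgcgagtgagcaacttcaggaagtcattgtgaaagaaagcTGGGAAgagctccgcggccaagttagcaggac
The CRBN stretch holds neither motif. CUL4B has 4 listed starts, and 2 of their stretches hold TGGGAA while 1 holds CACGTG. IKZF1 has 3 listed starts, of which the first holds TGGGAA. Over the 22 listed stretches of 9 members, TGGGAA was found in 3, beside 20.8% of all 35116 stretches of the same length. CACGTG was found in 2, those of CUL4B and RBX1, beside 6.34%. These motifs do not overlap each other in the printed stretches, and a match is a description of the letters only.

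CRBN, on chromosome 3, was measured by 2 probe sets. Probe set 222533_at had a signal of 1398 in co-culture and 662 alone, which was 2.11-fold higher (log2 ratio 1.08). Probe set 218142_s_at had 682 in co-culture and 625 alone, 1.09-fold higher (log2 ratio 0.13). Both were above the floor on both arrays and higher in co-culture, but they differed by 0.95 on the log2 scale. In the 2947 genes with exactly 2 such probe sets, the median difference was 0.42. Of 101 genes at least 2-fold higher on a brightest probe set above the floor on both arrays, with another above it too, 29 (28.7%) had another probe set past 2-fold. CRBN was not among those 29. Averaged over both probe sets, CRBN had a log2 ratio of 0.60.

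DDB1, the adaptor of all CUL4 ligases, was measured by 1 probe set, which had 3671 in co-culture and 2863 alone (log2 ratio 0.36). RBX1, the RING subunit shared by most cullin ligases, had 10900 in co-culture and 11040 alone on its 1 probe set (log2 ratio -0.02). Its sign turned under quantile normalization and loess, and it was within 0.03 of 0 throughout. Neither gene has another probe set that could be set beside these values.

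The 2 scaffold genes differed in how their probe sets behaved. CUL4A had 1730 in co-culture and 1681 alone on its brightest probe set (log2 ratio 0.04), and 1039 and 711 on the next (log2 ratio 0.55). A dimmer CUL4A probe set went the other way, with 94.0 in co-culture, below the floor, and 149.6 alone, which made it at least 1.29-fold lower. The remaining one, 85.6 in co-culture and 23.4 alone, was below the floor on both arrays. CUL4B, the X-linked paralogue, had 1464 in co-culture and 832 alone on its brightest probe set (1.76-fold higher, log2 ratio 0.81). Its other probe sets had 657 and 369 (log2 ratio 0.83), 645 and 491 (0.39), and 298 and 201 (0.57), with co-culture first in each pair. All 4 CUL4B probe sets were thus higher in co-culture. Their range of 0.44 compares with a median range of 0.94 in the 442 genes that had exactly 4 probe sets past both floors. The 4 are of the s_at and x_at classes, which can bind several transcripts.

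**Figure D2:**
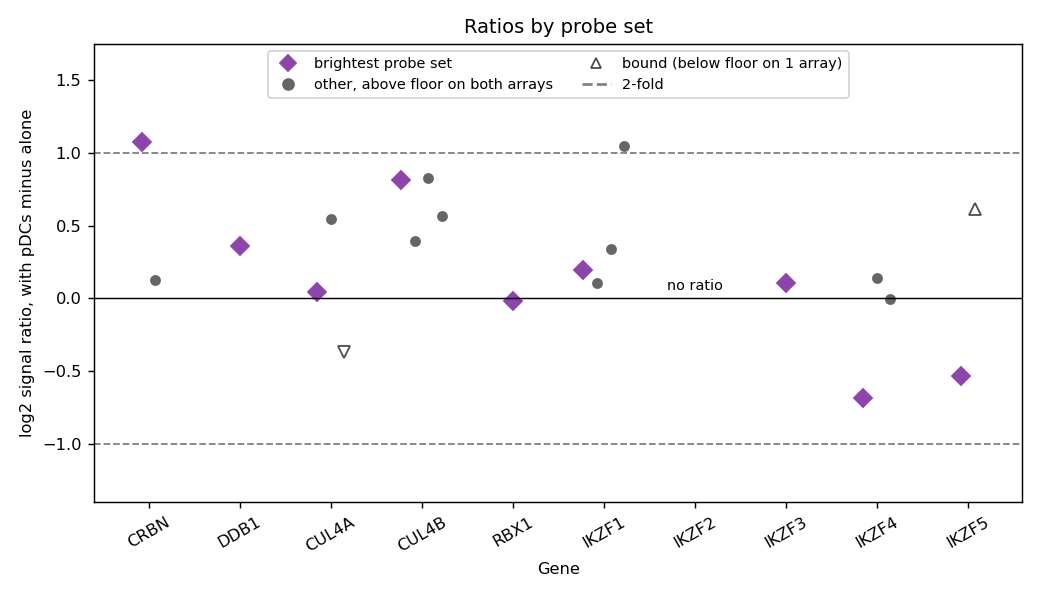
Log2 signal ratios, with pDCs minus alone, of each member probe set that was above the floor on at least 1 array. Diamonds are the brightest probe set of a gene, dots are its others, and open triangles are bounds that point away from 0. The CUL4B points all lie between 0.39 and 0.83, while those of CRBN, IKZF1 and IKZF4 are spread by 0.95, 0.94 and 0.83, and, with bounds, those of IKZF5 and CUL4A by at least 1.15 and 0.92.

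IKZF1, on chromosome 7, encodes Ikaros, a zinc finger regulator of lymphoid development. It was measured by 9 probe sets, of which 4 were above the floor on both arrays and 5 on neither. The brightest had 2884 in co-culture and 2522 alone (log2 ratio 0.19), and the next had 1236 and 1149 (0.11). The others had 667 in co-culture and 528 alone (0.34), and 456 in co-culture and 221 alone. The last of these, 205038_at, was 2.07-fold higher (log2 ratio 1.05) and is the other member probe set past 2-fold. All 4 ratios were positive, with a range of 0.94, close to the median range of genes with 4 such probe sets. Of the 5 dim probe sets, 4 lay between 8.98 and 59.3 on the arrays. The fifth, 220704_at, had 112 in co-culture and 5.75 alone, so it was just under the floor in co-culture and has no ratio here.

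IKZF3, on chromosome 17, encodes Aiolos, the close relative of Ikaros that is active in late B-lineage cells. Its brightest probe set had 2145 in co-culture and 1996 alone (log2 ratio 0.10). Its 2 other probe sets were below the floor on both arrays, at 101 in co-culture and 41.2 alone, and at 22.8 and 17.1. The ratio of IKZF3 therefore rests on 1 probe set.

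IKZF2 encodes Helios, known from regulatory T cells. Its 3 probe sets had 26.8, 29.6 and 3.86 in co-culture, against 45.0, 19.8 and 7.16 alone. All lay under both floors, so no ratio is given, and a low transcript level could not be told from none. IKZF4 encodes Eos, a corepressor partner of FOXP3 in regulatory T cells. Its brightest probe set had 239 in co-culture and 384 alone (log2 ratio -0.68). Its 2 others above the floor had 142 in co-culture and 128 alone (0.14), and 133.1 in co-culture and 133.6 alone (0.00). The lower value of IKZF4 thus rests on 1 of 3 probe sets above the floor, and the range of 0.83 compares with a median of 0.70 in 1237 genes with exactly 3 such probe sets. Its last probe set had 32.9 and 37.9.

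IKZF5 encodes Pegasus, a more distant family member. One probe set had 294 in co-culture and 425 alone (log2 ratio -0.53). The other had 190 in co-culture and 57.0 alone, below the floor, and was at least 1.53-fold higher. The 2 probe sets of IKZF5 therefore disagreed in direction, and no direction is given for the gene. Opposite signs were common on these arrays: 51.0% of the 4844 genes with 2 or more probe sets past both floors had at least 1 of each sign. IKZF5, with only 1 such probe set, is not among these 4844 genes.

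**Figure D3:**
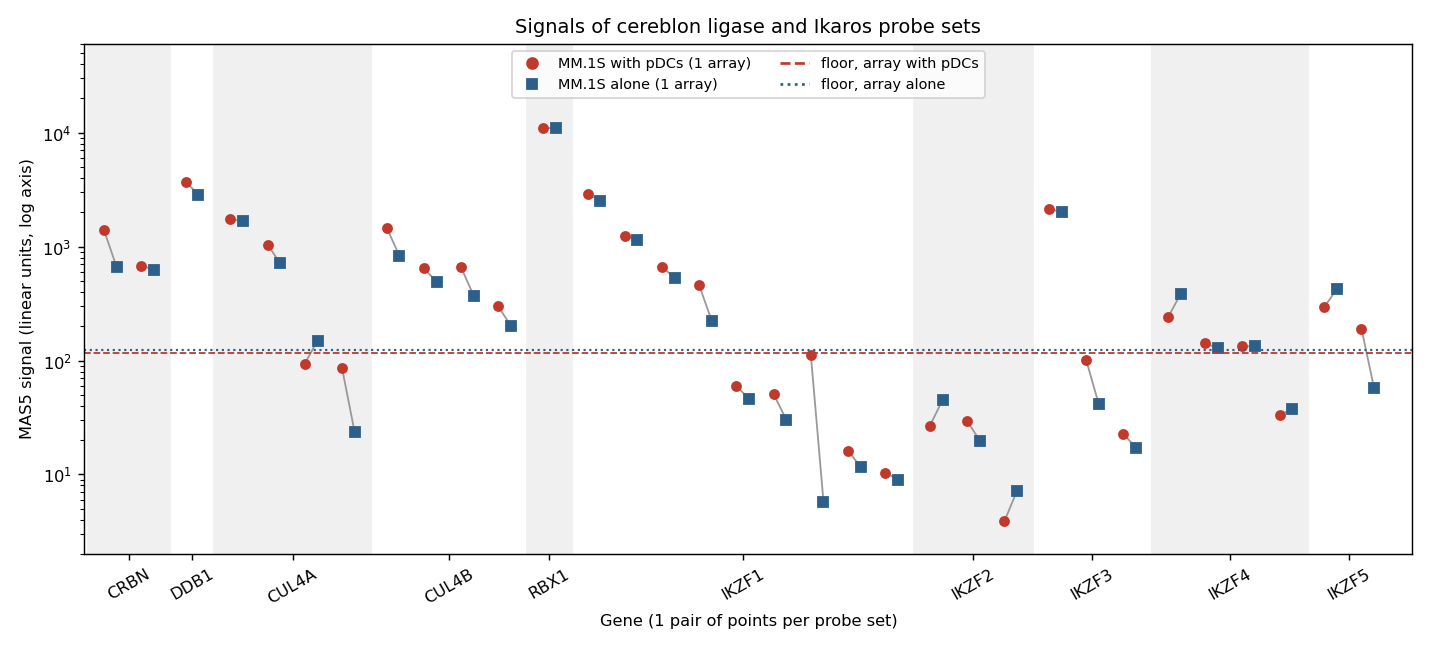
MAS5 signal (log axis) of all 33 member probe sets, with red circles for MM.1S with pDCs, blue squares for MM.1S alone, and grey lines that join the 2 values of a probe set. Dashed and dotted lines are the floors of 115.9 and 124.0. All 3 IKZF2 pairs and 5 of the 9 IKZF1 pairs lie below both floors. Heights of different probe sets cannot be compared.

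The other parts of the cullin machinery were near the values of all genes. None of the 7 genes for other cullins and RBX2 (RNF7) was past 2-fold in either direction on its brightest probe set. Their median log2 ratio was 0.12, with 4 positive and 3 negative. Other probe sets of CUL2 and CUL5 were more than 2-fold higher, with a log2 ratio or bound of 1.12 for CUL2. CUL5 had -0.39 on its brightest. Another probe set of CUL7 was more than 2-fold lower, with a log2 ratio or bound of -1.07. CUL3, the scaffold of BTB-domain ligases, had 7620 in co-culture and 5581 alone (0.45), and CUL1, the scaffold of SCF ligases, had 4625 and 3369 (0.46), with -0.69 on its other probe set. Of 13 listed genes of the NEDD8 cycle and CUL4 regulation, 11 had a usable probe set, 0 were past 2-fold, and the median was -0.21. NAE1, a subunit of the enzyme that activates NEDD8, had 8447 in co-culture and 5745 alone (0.56). NEDD8 itself, the ubiquitin-like protein that switches cullins on, had 6415 and 7400 (-0.21). All 9 genes of the COP9 signalosome, which takes NEDD8 off cullins, were within 2-fold on their brightest probe sets, with a median of 0.19. Another probe set of COPS8 gave a log2 ratio or bound of -1.32. The catalytic subunit of the signalosome, COPS5, had 7555 in co-culture and 9369 alone (-0.31), whereas COPS3 had 7749 and 6584 (0.24).

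Substrate receptors that compete with cereblon for DDB1 were also within 2-fold on their brightest probe sets. Other probe sets went past it, with log2 ratios or bounds down to -1.45 (ERCC8) and up to 1.17 (COP1). All 19 were measured, 8 were positive and 11 negative, and the median log2 ratio was -0.03, with values between -0.60 and 0.79. DTL, which targets replication proteins, had 10058 in co-culture and 10166 alone (-0.02), a sign that turned under quantile normalization and loess. DCAF13 had 3882 and 4612 (-0.25), with 0.41 and at most -0.38 on its other probe sets.

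Other proteins that cereblon degrades in the presence of its drugs gave 15 measured genes of 16. On their brightest probe sets, 1 was at least 2-fold higher, 0 were lower, and the median log2 ratio was -0.03. Another probe set of ARID2, which had -0.08 on its brightest, gave a log2 ratio or bound of -1.18. RNF166, itself a ubiquitin ligase, had 301 in co-culture and 148 alone on its 1 probe set (2.03-fold higher). Its signal alone was near the floor of 124.0 and close to the highest bacterial control of that array (147). CSNK1A1 and GSPT1, the targets of lenalidomide in del(5q) disease and of newer degraders, are given after their values were seen: 7758 in co-culture and 8050 alone (-0.05), and 6397 and 6108 (0.07). Of 6 genes for proteins tied to cereblon without a drug, 5 had a usable probe set and 1 was past 2-fold on its brightest. This was MEIS2, a homeobox factor and reported natural substrate, with 819 in co-culture and 301 alone (2.72-fold higher). MEIS2 had no other probe set. The median of the 5 was 0.26. PRKAA1 had 0.26 on its brightest probe set, and its others gave log2 ratios or bounds from -0.24 to 1.21.

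Genes known to respond to loss of Ikaros and Aiolos in myeloma or T cells were mixed. Of 11, 9 were above the floor, and their median log2 ratio was 0.07. On brightest probe sets, 2 were at least 2-fold higher, beside 3.16% of all genes measured, and 0 lower, beside 4.51%. SLAMF7 had 0.07 on its brightest probe set, with log2 ratios or bounds of 0.87 and 1.08 on its others. IRF4 and MYC, which fall in myeloma cells when the 2 factors are degraded, had 11634 in co-culture and 11111 alone (0.07), and 3975 and 3383 (0.23). IFIT1, an antiviral protein, had 560 in co-culture and 141 alone (3.96-fold higher). Its signal alone was near the floor of 124.0 and below the highest bacterial control of that array (147). TNFSF10, which encodes TRAIL, had 800 and 308 (2.60-fold higher), with 0.61 and 0.89 on its other probe sets. Both are also interferon-stimulated genes and were known from earlier results on these arrays. Among 16 genes of the NuRD, SIN3 and CTBP corepressors that Ikaros recruits, the median was 0.18. On brightest probe sets, 13 were positive, beside 46.7% of all genes measured. Some of the 13 had negative log2 ratios or bounds on other probe sets, down to -0.90 (CHD4), -0.68 (SIN3B), -0.60 (HDAC2) and -0.35 (MBD3). CTBP2, negative on its brightest, had up to 0.63 on another. None of the 16 was past 2-fold on its brightest probe set, while another probe set of RBBP4 gave a log2 ratio or bound of -1.63. RBBP7, a histone-binding subunit, had 10692 in co-culture and 7874 alone (0.44), and MBD2 had 10353 and 10042 (0.04).

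**Figure D4:**
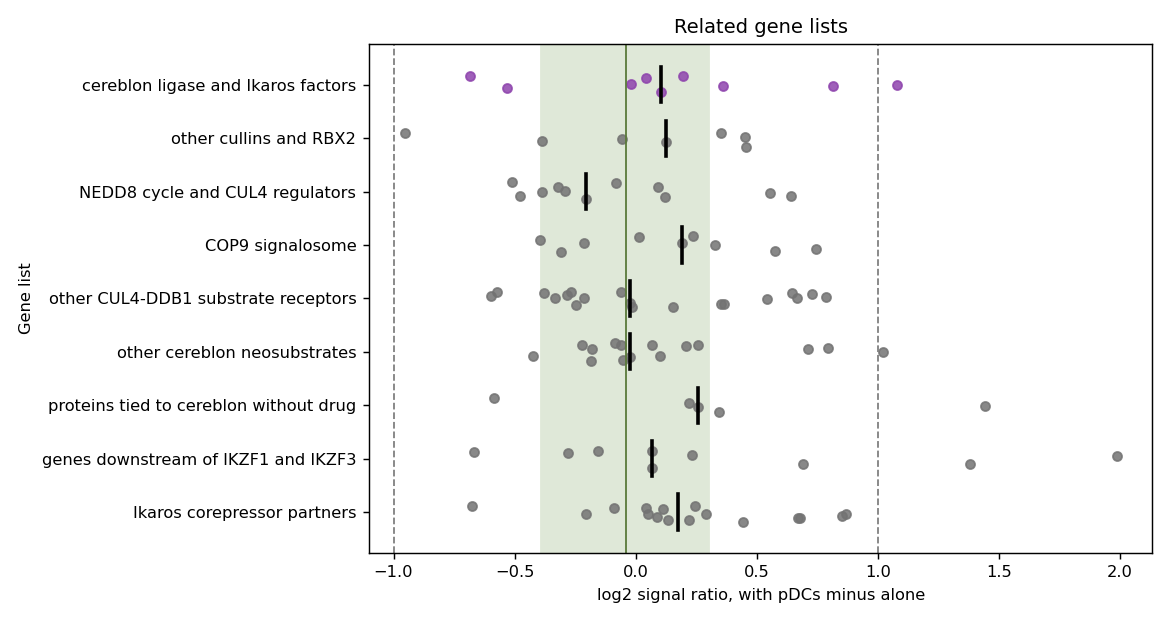
Log2 signal ratios, with pDCs minus alone, of the measured genes of the members and of 8 pathway lists, without the cell type markers (dots, spread vertically only for legibility), with black bars for medians. The green line and band are the median and quartiles of all 14408 genes measured, and dashed lines mark 2-fold. The medians of these lists lie between -0.21 and 0.26, inside the band of -0.39 to 0.30, and 4 listed genes other than CRBN lie past the upper dashed line.

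Ikaros genes are also transcribed in pDCs, T cells and B cells, and in RNA of a whole culture fewer cells of a type and less RNA per cell cannot be told apart. Plasma cell markers were above the floor on both arrays in 7 of 7 cases (summed signal 113631 in co-culture and 121120 alone), with XBP1 at 31891 and 44501 and TNFRSF17 at 31101 and 22656. Of 13 pDC markers, 7 passed the floor in co-culture and 9 alone, and their summed signal was 6636 in co-culture and 8428 alone. GZMB was 3.47-fold lower and TLR9 at least 2.24-fold lower. The brightest BCL11A probe set was at least 2.32-fold lower, while others gave a log2 ratio of at most -0.47 on one and at least 0.20 on another. Markers named from here on that are not past 2-fold were in part chosen after their values were seen. The defining pDC markers CLEC4C and IL3RA were below the floor on both arrays, TLR7 was at least 1.71-fold higher, and LILRA4 and IRF8 each had a log2 ratio of 0.26. TCF4 had -0.30 on its brightest probe set, and its 7 others gave log2 ratios or bounds from -0.19 to 1.07. PTCRA had -0.48 on its brightest probe set, with log2 ratios or bounds of 0.90 and 1.04 on its 2 others.

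Of 11 T cell markers, 3 passed the floor in co-culture and 4 alone (summed signal 723 and 977), with CD3D and CD3E below it on both, CD5 at -0.34, CD7 at -0.44 and CD3G at 0.28 on the log2 scale. Of 8 monocyte markers, 4 passed it in co-culture and 5 alone (714 and 1649), with LYZ at least 6.14-fold lower. ITGAM was at least 1.89-fold higher, with a log2 ratio or bound of -0.84 on its other probe set. Of 4 B cell markers, 3 and 4 passed the floor (779 and 1037). Log2 ratios were -0.55 for CD79A, -0.33 for CD22 and 0.79 for MS4A1. Of 5 NK cell markers, 3 passed the floor on each array (794 and 902), with KLRF1 at -0.95 and NCAM1 at 0.27. Other NCAM1 probe sets gave 0.98, at least 0.69 and at most -0.40. The sums rest on few genes. Without the marker that differed most between the arrays, they were 3068 in co-culture and 4028 alone for pDCs (without TCF4), 674 and 846 for T cells (without IL7R), and 697 and 938 for monocytes (without LYZ). They were 744 and 831 for B cells (without PAX5), and 670.2 and 661 for NK cells (without KLRF1), where the order turned. It also turned for plasma cell markers, which had 81740 in co-culture and 76619 alone without XBP1. The part of other cell types in the members' values was not tested.

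RNA quality differed between the arrays in the same comparison. Control signal at the 3' end over that at the 5' end was 8.09 in co-culture and 19.5 alone for ACTB, and 2.46 and 3.07 for GAPDH. A probe set far from the 3' end can lose signal in such RNA. The sources used here do not give where member probe sets lie along their transcripts, and the part of RNA quality in the values of CRBN, CUL4B and IKZF1 was not tested.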

How the data were processed

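Total RNA of MM.1S cells with and without pDCs was biotin-labelled and measured on HG-U133 Plus 2.0 arrays from Affymetrix, 1 per group, per the labels' protocols. The deposited values are linear intensity signals, 1 for each of 54675 probe sets, for which the submitters' processing notes name MAS5. The sources used here give neither the MAS5 version nor detection calls. With 2% trimmed from each end, the mean signal was 500.1 on both arrays, so a shift shared by most transcripts cannot be seen.

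Probe sets were named through the platform annotation, and 10 of 10 member symbols matched RefSeq genes of GRCh38.p14 by gene identifier. No member probe set was among those with several symbols. The floor was the median signal of each array. Of 27 bacterial control probe sets, 0 were above it in co-culture and 2 alone. Log2 ratios are co-culture minus alone. Below the floor on 1 array, a ratio is only a bound ("at least"). Below both floors, none is given. A 2-fold difference was the threshold of size. With 1 array per group there is no test, p-value or standard error. The number of arrays is what limits precision.

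All 10 members are named with each probe set. From each other list, genes past 2-fold are named (at most 4) or, where there are none, the 2 with the highest signal, and IRF4 and MYC always. Other names, among them several cell type markers, were chosen after their values were seen. Marker sums without 1 gene were added after seeing the data. The members and lists were chosen with earlier results of these data known. Listed genes without a probe set of 1 symbol were not analysed here. Counts and medians over the lists use the brightest probe set of each gene. Alternatives were median centring, quantile normalization, loess (span 0.3), a lower floor (30th percentile), a higher one (70th) or none, the mean over probe sets, leaving out the x_at and s_at classes, and thresholds of 1.5-fold and 3-fold. The calculation was tested on simulated data. Python 3.11.15 was used with numpy 2.4.6, pandas 2.3.3, statsmodels 0.14.6 and matplotlib 3.10.9.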

Additional observations from a re-analysis of the deposited data

How the results depend on the processing

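The count of members at least 2-fold higher, 1 as reported, stayed at 1 under each scaling and floor and without the x_at and s_at classes. Over all genes measured, the count was 456 of 14408 as reported and 476 to 479 under the scalings. It was 1502 of 17536 with the lower floor, 2365 of 19775 with none and 187 of 9824 with the higher. Without the x_at and s_at classes it was 409 of 11438. The constant member count thus does not stand beside a constant share of all genes. The member count was 0 with the mean over probe sets, beside 445 of 11873 genes measured in that setting. It was 0 at a 3-fold threshold and 2 at 1.5-fold, where 1 member was lower. The shares of all genes at these 2 thresholds were not computed, so these counts cannot be set beside them. The 2 probe sets at least 2-fold higher became 5 of 26 with a floor at the 30th percentile (10.9% of all probe sets with 1 symbol), 6 of 33 with no floor (15.4%) and 1 of 17 with a floor at the 70th percentile (2.49%). At 1.5-fold, 5 were higher and 1 was lower, and at 3-fold 0 were higher. The shares of all probe sets at 1.5-fold and 3-fold were not computed either. The members' median log2 ratio of 0.10 moved to 0.45 with the mean over probe sets, in which dim probe sets count as much as bright ones. Single members kept their sign under every alternative that gave a value for CRBN (0.60 to 1.09), IKZF1 (0.18 to at least 0.35), IKZF3 (0.08 to at least 0.46), IKZF4 (-0.68 to -0.12 or lower), DDB1 (0.35 to 0.37) and CUL4B (0.65 to 0.83). IKZF5 turned to 0.60 with the mean over probe sets, CUL4A to -0.37 or lower without the x_at and s_at classes, and RBX1 to as much as 0.02 under quantile normalization and loess. Without those classes CUL4B had no probe set left. With no floor IKZF2 had a log2 ratio of -0.75, from signals that lay below the floor on both arrays. No scaling moved the median of all genes by more than 0.1 (log2). No paired analysis was possible because each group had 1 array and no test was made. Signals near or below the floor limit what can be said of IKZF2, IKZF4 and IKZF5.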
